A study of Homo sapiens with 12 samples.

Results

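The cytosolic ribosomal protein genes were examined in IMR90 ER:RAS cells, which are human lung fibroblasts carrying an ER:RAS fusion that is switched on by 4-hydroxytamoxifen (4OHT) and drives oncogene-induced senescence (OIS). Members were the protein-coding genes with a symbol of RPL or RPS followed by digits and at most A, X or L, together with RPLP0, RPLP1, RPLP2 and RPSA, without RPS27L, the RPS6K kinases, Y-linked copies and pseudogenes. This gave 80 genes of the 62069 in the table, 49 of the large (60S) subunit and 31 of the small (40S) subunit. RNA-seq was run on 12 libraries at passage 13, taken 5 days after the start of treatment, in 4 groups of 3. The vector group was not induced, and the vector/4OHT group was induced with 100 nM 4OHT. The shXPO7_3/4OHT and shXPO7_5/4OHT groups were induced in the same way and carried an shRNA against XPO7, which encodes the nuclear transport receptor exportin 7. All groups shared the ER:RAS transgene, and no uninduced knockdown was analysed here. No label ties the libraries of a group to cultures of their own, and the p-values therefore reflect a spread among libraries that may be technical.

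Ribosomal proteins assemble on ribosomal RNA in the nucleolus, with the help of biogenesis factors, into the 40S subunit, which reads the mRNA, and the 60S subunit, which forms the peptide bond. Their mRNAs are among the most abundant of growing cells and begin with a 5′ terminal oligopyrimidine (TOP) tract, a C followed by more pyrimidines, through which mTORC1 and LARP1 control their translation. Free RPL5 and RPL11 bind MDM2 and so stabilise p53, which ties this family to growth arrest.

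Start windows were examined first because the TOP tract is the sequence most ribosomal protein mRNAs share. RefSeq windows of GRCh38.p14, from 250 bases before to 50 bases after a start, were found for 63 of the 80 members. Of these, 46 (73.0%) had a C at the start and C or T in each of the first 5 bases, against 1404 of 27305 genes with a window (5.14%). The run was 5 to 19 bases long in those members, with a median of 8. The windows below show 10 bases before the start and 20 from it on, with the pyrimidine run from the start in capitals, for members that lie at both ends of the OIS fold changes or that are discussed by name; RPS15 and RPL10L had no such run at the annotated start.
RPL10: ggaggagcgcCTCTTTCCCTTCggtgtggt
RPSA: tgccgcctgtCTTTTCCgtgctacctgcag
RPL36: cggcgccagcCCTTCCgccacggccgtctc
RPL28: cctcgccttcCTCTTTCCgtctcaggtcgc
RPS6: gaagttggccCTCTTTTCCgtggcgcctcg
RPS14: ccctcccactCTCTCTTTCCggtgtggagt
RPL11: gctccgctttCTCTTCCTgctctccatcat
RPL22: cgctcacctcCCTTTCTaactccgctgccg
RPL35A: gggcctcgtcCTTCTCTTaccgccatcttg
RPS24: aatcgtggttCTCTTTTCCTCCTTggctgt
RPS15: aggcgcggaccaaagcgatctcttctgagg
RPL10L: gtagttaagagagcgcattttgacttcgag

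On GRCh38.p14 the RPL10 window lies at chrX:154398367-154398396 on the plus strand, that of RPS14 at chr5:150449720-150449749 on the minus strand, that of RPSA at chr3:39406710-39406739 on the plus strand and that of RPS15 at chr19:1438386-1438415 on the plus strand. Each spans an annotated start of its gene. Where a gene had several annotated starts (3 for RPL10), a run at any of them was counted, in members and in all genes alike. For such members the start with the longest run was printed. Among other short motifs, counted on both strands of the whole 300-base window, CCGGAAG stood in 22 of the 63 members (34.9%) and 12.2% of all genes with a window. CTTTCC stood in 30 members (47.6%) against 30.2%, and it can overlap a TOP tract on the plus strand. AAGATGG stood in 8 members (12.7%) against 7.11%. These letters describe the windows and were not tied to any factor.

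Of the 80 members, 77 passed the filter on low counts and entered the fit, which covered 15284 genes. RPL10L, a testis paralog of RPL10, had 0 counts in all 12 libraries, which allows at most 0.0497 to 0.105 CPM (counts scaled to library size) per library, and RPL3L, the striated-muscle paralog of RPL3, had 8 counts in all. Mean CPM over the 12 libraries ran from 4.26 to 952 in the tested members, with a median of 321. Only RPL17, RPL36A and RPL39L lay under 50 CPM. RPL17 and RPL36A overlap readthrough genes in the annotation and RPL39L is a close copy of RPL39, so their counts may depend on how shared reads were handled, which the sources used here do not give and which was not tested. Per kilobase of transcript, RPS18 (1317 CPM per kb), the stalk protein RPLP1 (1292) and RPS19 (1031) were among the highest, against a median of 530 CPM per kb.

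Totals per library ran from 28534141 to 60397769 counts. XPO7 lay between 127 and 144 CPM in the 6 vector libraries, between 26.4 and 28.7 CPM in shXPO7_3/4OHT and between 50.8 and 54.0 CPM in shXPO7_5/4OHT, so that each label held for the targeted gene. Of the 14 fibroblast markers listed, all were detected, with summed levels of 35268 to 41134 CPM in vector, 30820 to 34026 in vector/4OHT, 31891 to 39527 in shXPO7_3/4OHT and 33661 to 38947 in shXPO7_5/4OHT. In OIS the summed fibroblast markers were lower, as were the ribosomal protein genes below, and their sums did not overlap between vector and vector/4OHT. By edgeR 7 of the 14 fell (50%, against 26.1% of all genes) and 1 rose (7.14%, against 24.8%). Their median log2 fold change was -0.33, and the part of this in the results below was not tested. Summed levels of 8 epithelial, 8 endothelial and 10 immune markers did not exceed 7.14, 19.3 and 1.39 CPM, and 2 endothelial and 3 immune markers had 0 counts throughout. The epithelial sum was 6.58 to 7.14 CPM in vector and 1.86 to 2.65 CPM in the induced groups, and its part in the results below was not tested.

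Ribosomal protein genes as a whole took a smaller share of the counts after RAS induction. The share was 3.37%, 3.20% and 3.0% in vector libraries T, A and C and 2.58%, 2.67% and 2.79% in vector/4OHT libraries T, A and B. Each induced library lay below each uninduced one, with a difference of group means of -0.509 percentage points (2.68% ± 0.109 against 3.19% ± 0.188, SD, n = 3). The exact two-sided permutation test gave p = 0.1, the smallest that 3 libraries against 3 allow. Both subunits moved together, since the ratio of 40S to 60S counts was 0.612 ± 0.00374 in vector and 0.606 ± 0.00248 in vector/4OHT (SD, n = 3; exact permutation p = 0.3), with overlapping libraries. The share of counts on mitochondrial genes moved the other way, from 3.59% ± 0.137 to 3.90% ± 0.0725 without overlap (SD, n = 3; exact permutation p = 0.1), and its part in the result was not tested. In bulk RNA, fewer transcripts per cell and a larger amount of other RNA cannot be told apart.

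**Figure D1:**
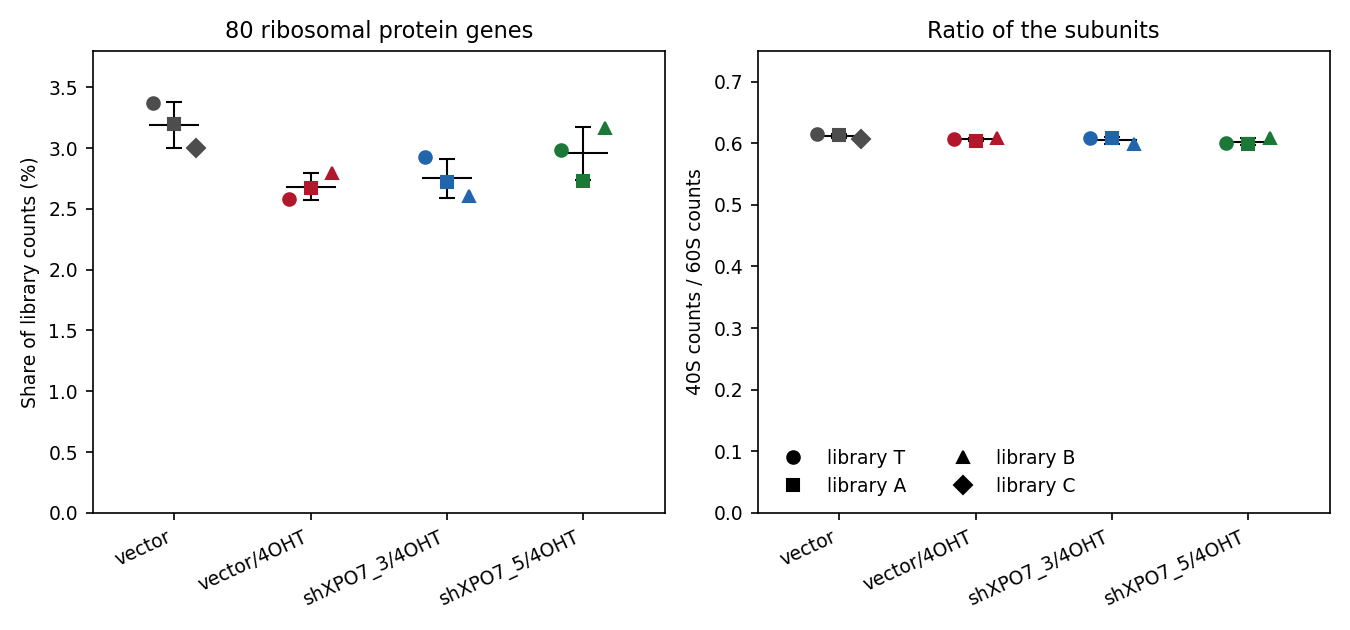
Share of each library's counts on the 80 ribosomal protein genes (left, %) and ratio of 40S to 60S counts (right) in the 4 groups of 3 libraries. Points are libraries, bars are the mean ± SD; the vector/4OHT libraries (2.58% to 2.79%) lie below the vector libraries (3.0% to 3.37%), while the ratio stays between 0.598 and 0.614 in all 12.

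Across single genes the fall was small and wide rather than large in a few. In vector/4OHT against vector, 72 of the 77 members had a log2 fold change below 0 (93.5%, against 50.6% of all genes tested), and the median was -0.17 against -0.0068 for all genes, with -0.17 for the 40S and -0.16 for the 60S members. By edgeR's quasi-likelihood test at an adjusted p under 0.05, 25 members fell (32.5%), 15 of the 60S and 10 of the 40S subunit, against 26.1% of all genes called lower, so the share of members called lower was near the background. No member rose, against 24.8% of all genes; at an unadjusted p under 0.05 there was 1 higher member, RPL17, and 38 lower (57.1% of all genes in either direction), and DESeq2 called 23 lower and none higher. In 43 members all induced libraries lay below all uninduced ones (31.4% of all genes) and in 1 member, RPL17, above them (31.8%). Over the 648 other genes with a mean level of at least 7.87 log2 CPM, the lower quartile of the members, the median was 0.09, with 21.5% lower and 35.3% higher.

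The count of 25 rested on few libraries. Leaving out vector replicate T left 7 members lower, leaving out vector/4OHT replicate T left 6, and without vector replicate A or vector/4OHT replicate A there were 16 and 14, while none rose in any of these. In a fit to only these 2 groups, 34 fell and 1, RPL17, rose. With the replicate letter as a block it was 40, and with upper-quartile scaling, which moves the median of all genes to -0.10, it was 41.

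**Figure D2:**
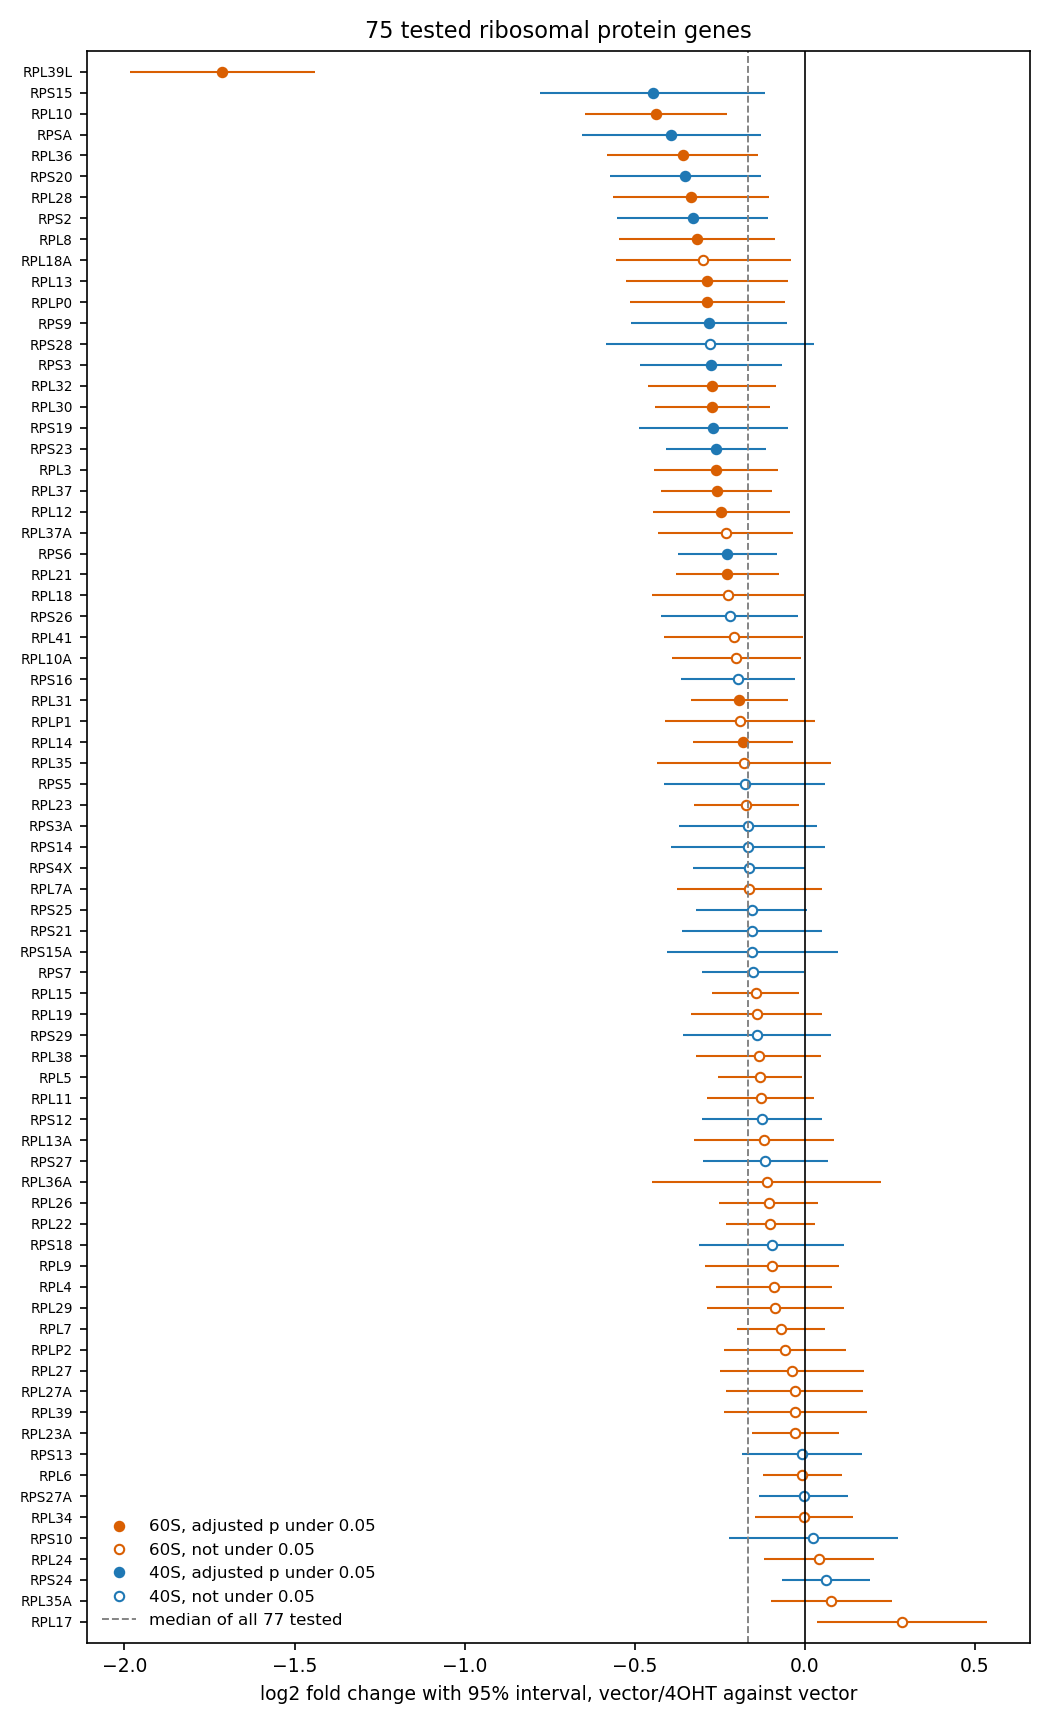
Log2 fold change of 75 of the 77 tested members in vector/4OHT against vector, with 95% intervals, ordered from lowest to highest. Filled points have an adjusted p under 0.05 (24 of those drawn, all lower), orange is the 60S and blue the 40S subunit, and the dashed line is the median of -0.17 over all 77; RPL39L (-1.71) stands apart and 5 members lie above 0.

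RPL39L, a paralog of RPL39 that is most abundant in testis, had the largest fall. Its level was 11.3, 9.42 and 9.78 CPM in vector libraries T, A and C and 3.31, 2.59 and 3.33 CPM in vector/4OHT libraries T, A and B. The groups were well apart, with a log2 fold change of -1.71 (SE 0.124, edgeR adjusted p = 2.34e-07), which is 0.305 of the vector level. RPL39 itself, a small 60S protein lining the exit tunnel, was at 253 ± 29 CPM in vector and 248 ± 10.5 in vector/4OHT (SD, n = 3), with a log2 fold change of -0.03 (SE 0.0965) and overlapping libraries. RPL39L was at 3.95, 3.8 and 3.34 CPM in shXPO7_3/4OHT and 4.41, 3.84 and 4.40 CPM in shXPO7_5/4OHT, above each vector/4OHT library in both, but below each vector library.

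RPL10, the 60S protein that joins late and completes the subunit, had the lowest adjusted p of the members after RPL39L. Its level was 512, 485 and 434 CPM in vector and 345, 345 and 367 CPM in vector/4OHT. All induced libraries were lower (log2 fold change -0.44, SE 0.0955, edgeR adjusted p = 0.00219). RPSA, the 40S protein also known as the laminin receptor, was at 395, 347 and 320 CPM in vector and at 260, 261 and 288 CPM in vector/4OHT. Again no library of the induced group reached the uninduced range (-0.39 on the log2 scale, SE 0.12, edgeR adjusted p = 0.0163).

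RPS15, a 40S protein needed for late assembly, was at 112, 109 and 93.9 CPM in vector and 74.8, 83.0 and 72.8 CPM in vector/4OHT, which gave -0.45 on the log2 scale (SE 0.152) with an edgeR adjusted p of 0.027. RPL36, of the 60S subunit, was at 258, 252 and 217 CPM and then at 184, 190 and 193 CPM (log2 fold change -0.36, SE 0.102, edgeR adjusted p = 0.0109). Both members had no overlap between the groups, and both have GC-rich transcripts (62.1% and 62.8%). RPS20, a 40S protein, fell from 254 ± 29.7 to 199 ± 5.12 CPM (SD, n = 3; log2 fold change -0.35). Its transcript has a GC content of 46.3%, and its fall was near that of RPL36 and smaller than that of RPS15. Single members picked in this way do not show whether the fall depends on GC content. Over all tested members the fold changes went down with rising GC content (Spearman -0.42), as described below.

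**Figure D3:**
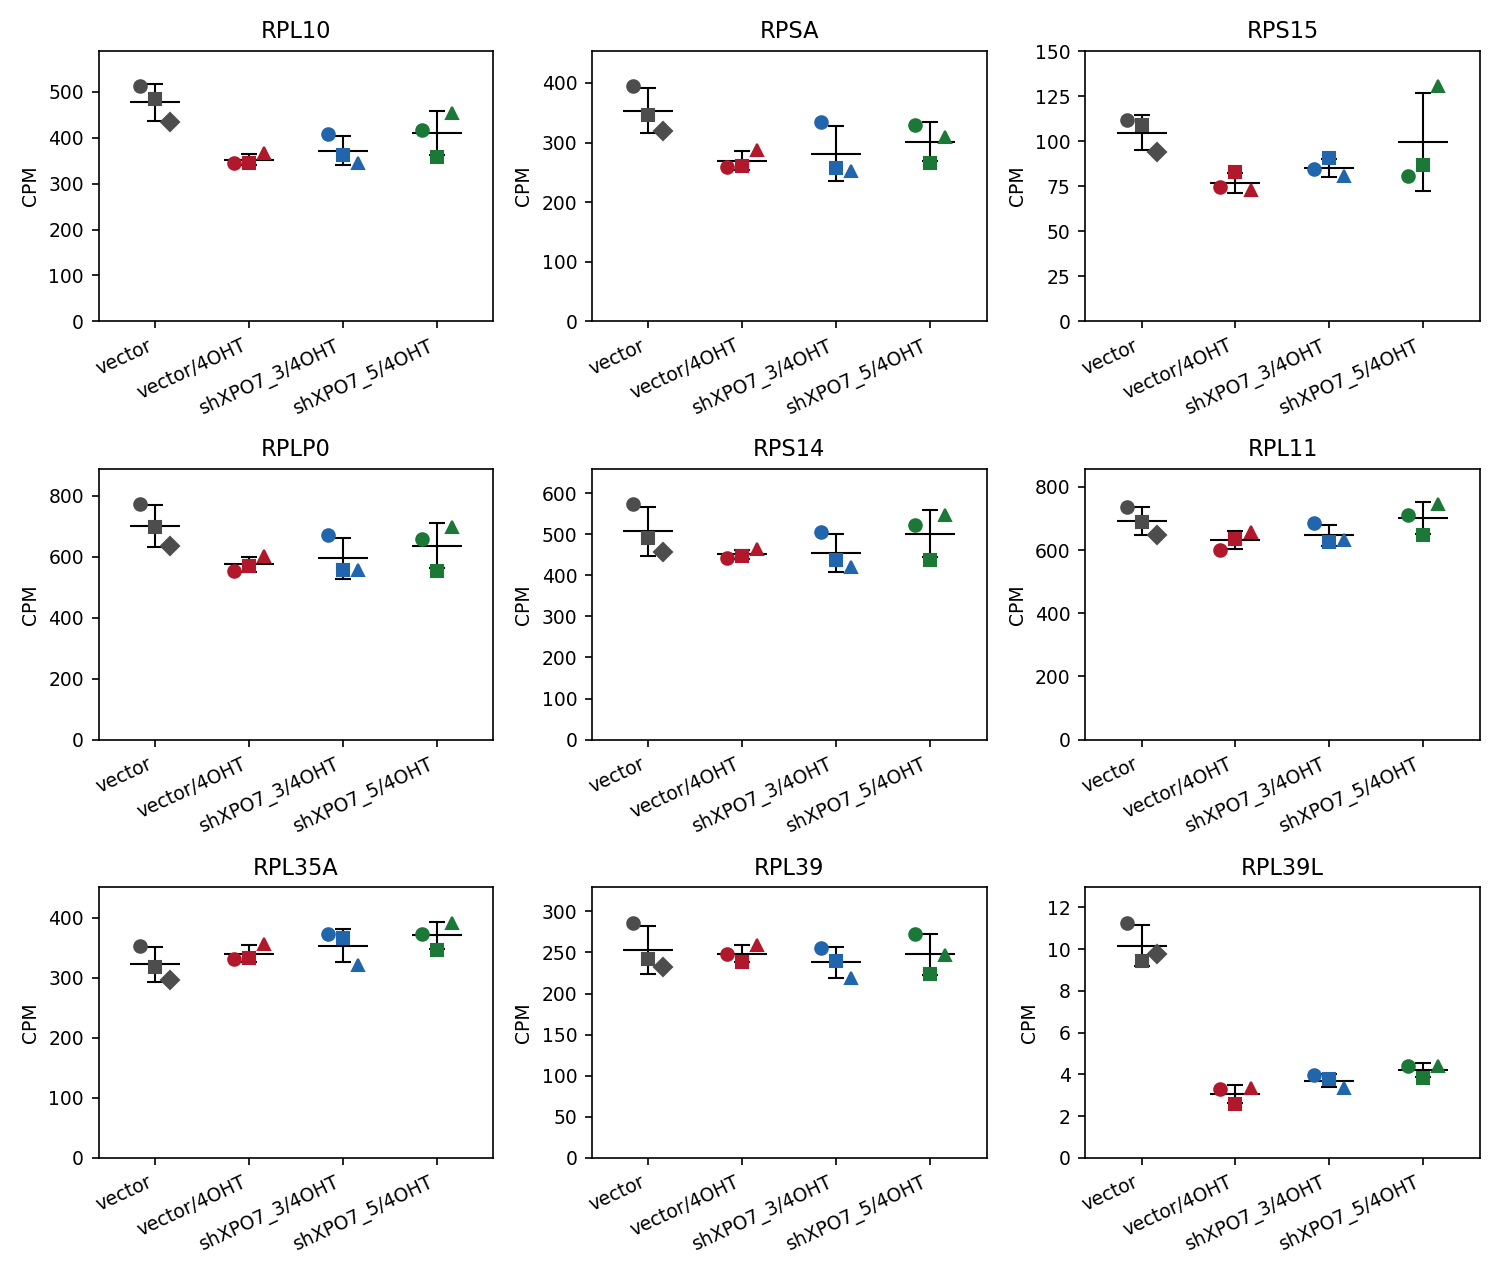
Level of 9 members in each library, in CPM on linear axes from 0, for the 4 groups of 3 libraries with mean ± SD; circles are libraries T, squares A, triangles B and diamonds C. RPL10, RPSA, RPS15 and RPLP0 lie lower in vector/4OHT than in vector without overlap, RPS14, RPL11, RPL35A and RPL39 overlap, and RPL39L falls from 10.2 to 3.07 CPM.

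Among members used as standards or known for roles outside the ribosome, RPLP0, the scaffold of the stalk, was at 772, 697 and 633 CPM in vector and 552, 568 and 603 CPM in vector/4OHT. The groups did not overlap, and the fall was -0.29 on the log2 scale (SE 0.104, edgeR adjusted p = 0.0366). RPLP0P2, a transcribed pseudogene of RPLP0, was at 9.18, 9.13 and 7.82 CPM in vector and 81.4, 82.5 and 81.6 CPM in vector/4OHT, 9.39-fold higher (log2 fold change 3.23, SE 0.0883). Added together, RPLP0 and RPLP0P2 came to 709 ± 69.8 CPM in vector and 656 ± 25.8 CPM in vector/4OHT (SD, n = 3), a ratio of 0.925 with overlapping libraries, against 0.82 for RPLP0 alone; whether the reads of the copy come from RPLP0 transcripts was not tested.

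RPS14, a 40S protein and one of the genes used to normalize the study's RT-qPCR, was at 573, 490 and 457 CPM in vector and 442, 448 and 463 CPM in vector/4OHT. Vector library C lay within the induced range, and the log2 fold change of -0.17 (SE 0.104, 95% interval -0.39 to 0.06) did not pass the test (edgeR adjusted p = 0.199). RPL13A, another common reference gene of the 60S subunit, had a log2 fold change of -0.12 (SE 0.0946, edgeR adjusted p = 0.315) from 760 ± 59.5 to 699 ± 32.4 CPM. The libraries of the groups overlapped for both.

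Of the MDM2-binding pair, RPL5 was at 594, 586 and 571 CPM in vector and 513, 531 and 554 CPM in vector/4OHT, without overlap, yet with an edgeR adjusted p of 0.0687 (log2 fold change -0.13, SE 0.0561). RPL11 was at 737, 688 and 649 CPM and then at 602, 637 and 657 CPM, with overlap (log2 fold change -0.13, SE 0.0725, edgeR adjusted p = 0.156). RPL22, a 60S protein dispensable for general translation, was at 231 ± 8.27 and 216 ± 3.40 CPM (log2 fold change -0.10, adjusted p = 0.182). RPS27, a 40S zinc-finger protein, had a log2 fold change of -0.12 (edgeR adjusted p = 0.268). None of these 4 passed the test as fitted, but RPL5 was called lower in 5 of the 16 alternatives, among them the correction for GC content and transcript length described below (log2 fold change -0.18, SE 0.0451, edgeR adjusted p = 0.00394), and RPL11 and RPL22 in 1 each.

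RPS6, the 40S protein phosphorylated by S6 kinases, fell from 935 ± 41.9 to 798 ± 51.5 CPM (SD, n = 3; log2 fold change -0.23, SE 0.0668, edgeR adjusted p = 0.0126). RPS19, a 40S protein mutated in Diamond-Blackfan anaemia, fell from 587 ± 43.1 to 487 ± 18.1 CPM (log2 fold change -0.27, SE 0.10, edgeR adjusted p = 0.0406). RPL3, at the peptidyl transferase centre, fell from 1052 ± 76.8 to 879 ± 35.9 CPM (log2 fold change -0.26, SE 0.0835, edgeR adjusted p = 0.0207). In all 3 the induced libraries lay below the uninduced ones, although each lost its call under at least 1 of the alternatives tried.

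The 5 members with a fold change above 0 were RPL17, RPL35A, RPS24, RPL24 and RPS10. RPL17, a 60S protein at the tunnel exit, was at 4.51, 5.13 and 4.59 CPM in vector and 6.18, 5.71 and 5.49 CPM in vector/4OHT (log2 fold change 0.28, SE 0.115, edgeR adjusted p = 0.0559). RPL35A, of the 60S subunit, was at 353, 319 and 295 CPM and then at 332, 333 and 357 CPM, with overlap (log2 fold change 0.08). Only RPL17 of the 5 had groups that did not overlap.

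Members were also compared with each other by scaling the libraries on the members themselves, which puts the median of the members near 0 (0.02) and that of all genes at 0.18. On that scale 11 members were higher and 7 lower in vector/4OHT than in vector (36.2% and 19% of all genes). RPL39L (-1.53), RPL10 (-0.25), RPSA (-0.20), RPL36 (-0.17), RPS20 (-0.16) and RPS2 (-0.14) were among the members that fell relative to the rest. RPL17 (0.47), RPL35A (0.27), RPS24 (0.25), RPL24 (0.23) and RPS10 (0.21) were the highest of the 11 that rose relative to the rest, so they kept their share of the counts more than the other members did.

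Members were also split by whether the pyrimidine run counted above began exactly at an annotated RefSeq start. The difference between these sets was not tested. A run further downstream, as in the printed RPS15 window, was not counted, so members without one at the start may still have TOP mRNAs. The median log2 fold change in OIS was -0.17 over 46 tested members with such a run and -0.15 over 16 without it. The ranges were -0.44 to 0.08 and -0.45 to 0.28. Of these, 15 (32.6%) and 3 (18.8%) were called lower, against 26.1% of all genes. The lowest values of these ranges were those of RPL10, with a run, and RPS15, without one at its annotated start. Single members such as these do not compare the sets.

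Other lists of the translation apparatus had other medians, and their counts stand against 24.8% of all genes called higher and 26.1% called lower. No list counts were made with the correction for GC content and transcript length described below. Ribosome biogenesis factors had a median log2 fold change of 0.34, with 49 of 86 tested genes higher (57.0%) and 3 lower (3.49%). DDX10, a helicase of 40S maturation, rose from 23.2 to 63.4 CPM (log2 fold change 1.45, SE 0.0842, edgeR adjusted p = 2.87e-08), while UTP3 (0.99), KRR1 (0.97) and RRP12 (0.96), which act in pre-40S processing, also rose. Of the 12 genes of the RNA polymerase I machinery, 5 rose (41.7%) and 1 fell (8.33%; median 0.19), among them the initiation factor RRN3 (0.89) and the subunits POLR1B (0.75), POLR1C (0.58) and POLR1A (0.31).

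Of 27 translation factors and related genes with known TOP mRNAs, 7 fell (25.9%, near the 26.1% of all genes) and 1 rose (3.7%), with a median of 0.00. EIF3F (-0.53), the elongation factor EEF1A1 (-0.52), the RNA-binding protein HNRNPA1 (-0.51) and the importin IPO5 (-0.34) were the largest falls, and EEF1A1 went from 2945 to 2055 CPM. Of 25 other initiation factors, 12 rose (48.0%) and none fell by edgeR (median 0.30), led by EIF3J (0.70), EIF2S2 (0.64), EIF2B3 (0.58) and the cap-binding protein EIF4E (0.57). Mitochondrial ribosomal proteins, which form a separate ribosome, rose in 31 (41.3%) and fell in 7 (9.33%) of 75 genes (median 0.15), with MRPL36 (1.01), MRPL50 (0.68), MRPS6 (0.66) and MRPL23 (-0.69) as the largest changes.

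Among 26 tested regulators of TOP mRNAs and growth, 3 rose and 5 fell (19.2%), both shares below those of all genes (median 0.02). MXD3 (-2.47), an antagonist of MYC, and EEF2K (-0.87), the kinase of elongation factor 2, fell, while MXD1 (1.28), another MYC antagonist, and CDKN2A (0.98), which encodes p16 and p14ARF, rose. Of 13 snoRNA host genes, 2 rose (15.4%) and 4 fell (30.8%; median -0.01), with SNHG16 (0.90) and SNHG12 (0.67) higher and SNHG6 (-0.52) and SNHG29 (-0.49) lower. The ribosomal protein-like genes outside the rule included RPL22L1, the paralog of RPL22, at 75.8 and 87.9 CPM (log2 fold change 0.21, edgeR adjusted p = 0.0273), and RPL7L1 at 180 and 206 CPM (0.20, edgeR adjusted p = 0.00759). They were the 2 of 8 that rose, a share near the 24.8% of all genes, and none of the other 6, with RACK1 and FAU among them, passed the test.

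**Figure D4:**
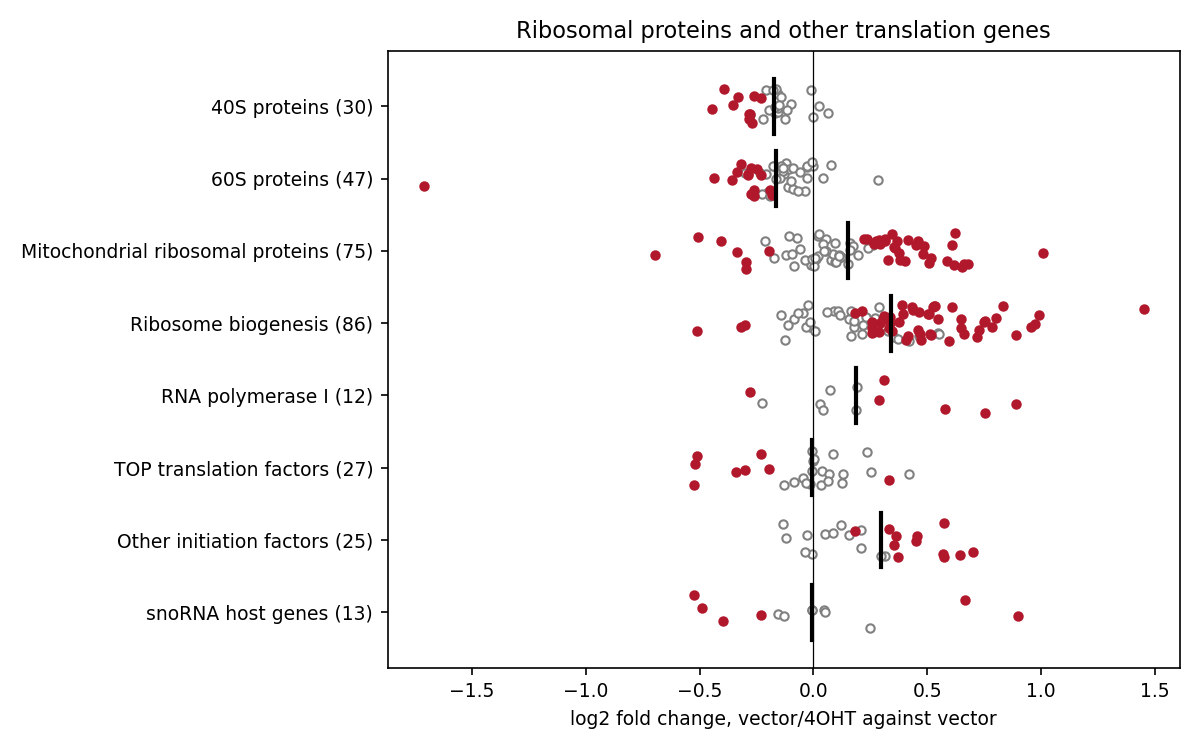
Log2 fold change in vector/4OHT against vector for the tested genes of each list, with the number tested in brackets. Filled points have an adjusted p under 0.05, black bars are medians; those of the 40S (-0.17) and 60S (-0.16) proteins lie below 0 and those of ribosome biogenesis (0.34), other initiation factors (0.30) and mitochondrial ribosomal proteins (0.15) above it.

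The knockdowns were compared with vector/4OHT to ask whether loss of XPO7 alters the induced state, and both use the same 3 control libraries. In shXPO7_3/4OHT no member was called by edgeR, against 0.124% of all genes, and none had an unadjusted p under 0.05 (6.41% of all genes); DESeq2 called none. The median log2 fold change was 0.04, with 61 of 77 members above 0 (48.9% of all genes), and 4 members, RPS16, RPS28, RPL28 and RPL39L, had no overlap (7.46%). The share of counts was 2.92%, 2.72% and 2.61% in libraries T, A and B, which overlaps the control range (difference 0.068 percentage points, exact permutation p = 0.6). RPS14 was at 506, 436 and 420 CPM, with a log2 fold change of 0.01 (95% interval -0.22 to 0.24), and RPL39L had a log2 fold change of 0.25 (95% interval -0.03 to 0.53, edgeR adjusted p = 0.87).

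In shXPO7_5/4OHT members lay higher on average, and none passed the test over all genes. edgeR called none, against 0.589% of all genes, while 28 were higher and 1 lower at an unadjusted p under 0.05 (21.6% of all genes in either direction), and DESeq2 called 1, RPL28, higher (log2 fold change 0.40, adjusted p = 0.0336). The median was 0.17 against 0.01 for all genes, with 69 of 77 above 0 (50.7%). In 21 members all shXPO7_5/4OHT libraries lay above the controls (14.2% of all genes), and in RPL22, RPL36A and RPL7 they lay below (12.6%). The share of counts was 2.99%, 2.73% and 3.16% in libraries T, A and B, 0.275 percentage points above the controls (exact permutation p = 0.2), with library A inside the control range.

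RPL28, a 60S protein, was at 298, 268 and 377 CPM in shXPO7_5/4OHT and at 232, 259 and 232 CPM in vector/4OHT. All knockdown libraries were above the controls (log2 fold change 0.38, SE 0.105, 95% interval 0.15 to 0.61, edgeR adjusted p = 0.113). RPL36A was at 3.13, 4.05 and 2.84 CPM and lay below the controls at 4.86, 4.47 and 4.38 CPM (log2 fold change -0.45, edgeR adjusted p = 0.18). RPL22, at 203, 210 and 189 CPM against 213, 220 and 214 CPM, had a log2 fold change of -0.10 (edgeR adjusted p = 0.286).

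For some of the other members named above, log2 fold changes in shXPO7_5/4OHT were 0.15 for RPLP0 (95% interval -0.08 to 0.37), 0.15 for RPS14 (-0.07 to 0.38) and 0.15 for RPL11 (-0.01 to 0.31). RPS27 had 0.22 (0.03 to 0.40), RPL13A 0.19 (-0.02 to 0.40), RPL3 0.18 (-0.0044 to 0.36) and RPS19 0.17 (-0.05 to 0.39). RPS6 had 0.08 (-0.06 to 0.23) and RPL5 0.02 (-0.11 to 0.14). Of members with large falls in OIS, RPS15 had 0.37 (0.04 to 0.70), RPL36 0.31, RPL10 0.22, RPS20 0.19 (-0.03 to 0.41) and RPSA 0.16. RPL39L, with 0.44 (0.16 to 0.73, edgeR adjusted p = 0.13), was the highest of these.

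The result in shXPO7_5/4OHT turned on 1 library. Without shXPO7_5/4OHT replicate A, 30 members were called higher and 1, RPL36A, lower, against 10.3% and 12.7% of all genes. Without replicate T or without replicate B none was called. Each other list of translation genes had 0 members called in either knockdown, and 1 of 14 fibroblast markers was higher in shXPO7_5/4OHT.

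The knockdowns were also set against each other. In shXPO7_5/4OHT against shXPO7_3/4OHT, edgeR and DESeq2 called no member (0.0131% of all genes by edgeR), 2 had an unadjusted p under 0.05 (11.9%), and no member had groups that did not overlap (5.54% of all genes higher, 4.17% lower). The median was 0.12, and the share of counts differed by 0.207 percentage points (exact permutation p = 0.2).

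Members moved together between libraries of 1 group as well. Vector library T held the highest level of 69 of the 77 members in its group and vector library C the lowest of 69. In shXPO7_5/4OHT, library B held the highest level of 53 members and library A the lowest of 64. In vector/4OHT and shXPO7_3/4OHT, 59 members each were highest in library B and library T.

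The libraries also differed in how the level of a gene depended on the GC content of its transcripts. Over all genes with known GC content, the Spearman correlation of a library's deviations with GC was 0.25, 0.00 and -0.21 in vector T, A and C and -0.35, -0.37 and -0.19 in vector/4OHT T, A and B. It was 0.35, -0.48 and -0.42 in shXPO7_3/4OHT and 0.44, -0.25 and 0.67 in shXPO7_5/4OHT T, A and B. In each of the 4 groups the library with the highest value also had the highest share of counts on ribosomal protein genes. These are correlations across genes, which are not independent replicates.

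Members, whose transcripts ran from 42.7% to 62.8% GC, also varied with GC content. The Spearman correlation of their fold changes with GC was -0.42 in OIS, 0.42 in shXPO7_3/4OHT, 0.72 in shXPO7_5/4OHT and 0.79 between the knockdowns. Over all genes with known GC content it was -0.13, 0.11, 0.67 and 0.70 in the same order. The signs were the same, but in OIS and shXPO7_3/4OHT the correlation was weaker over all genes than in the members. For OIS, the members' median was -0.13 on the log2 scale in the 26 members of lowest GC, -0.15 in the middle 25 and -0.24 in the 26 of highest GC, with 7, 7 and 11 called lower. In shXPO7_5/4OHT the medians were 0.07, 0.18 and 0.26.

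With a correction of each library for GC content and transcript length, 34 members were called lower in OIS and none higher (28.8% and 34.4% of all genes), all 25 calls made without it among them, and the median was -0.15 against 0.03 for all genes. These groups by GC then had medians of -0.17, -0.10 and -0.13, with 11, 11 and 12 members called lower. RPL39L stood at -1.65, RPL10 at -0.33 and RPS15 at -0.31. In shXPO7_5/4OHT the corrected median was 0.15, and 4 members were called higher (2.11% of all genes), namely RPS26, RPL38, RPL32 and RPL39L with log2 fold changes of 0.33, 0.23, 0.21 and 0.41. There the correlation of the members' fold changes with GC turned to -0.42 after correction, and between the knockdowns it turned to -0.65. The correction therefore did not leave the members free of GC in these comparisons. In OIS the corrected correlation was 0.11 and in shXPO7_3/4OHT 0.09. What sets the GC gradient was not tested.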

How the data were processed

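RNA was extracted with a Qiagen RNeasy kit and libraries were made with an Illumina stranded mRNA kit, per the labels. The authors deposited raw read counts per gene in 1 table for 12 libraries, and these were not normalized. Alignment by TopHat2 2.0.11 and counting by featureCounts 1.18.0, after CASAVA 1.8.4, on hg19 or GRCh37, are listed in the submitters' processing notes. For the annotation, the strand setting and multi-mapped reads, the choice is not given in the sources used. The 92 ERCC rows were 0 and left out. Group names follow the paper (vector for non-induced and induced controls), and shXPO7_5 is spelled as in the labels.

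Symbols, types, GC content and lengths came from GENCODE release 29 by Ensembl identifier, and start windows from RefSeq (GRCh38.p14). Counts were fitted in R 4.3.3 with edgeR 4.0.16 (filterByExpr, TMM, quasi-likelihood test) on all 12 libraries with 4 groups and no covariate, and Benjamini-Hochberg adjustment ran over 15284 genes with a threshold of 0.05. CPM are per TMM-scaled library, log2 fold changes come from this fit with its SE, and share tests are exact two-sided permutation tests. DESeq2 1.42.0, other scalings and filters, the replicate letter as a block, a spline correction for GC and length (97.3% of tested genes had both), 2-group fits and each library left out were alternatives. The scripts were tested on simulated data.

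Members and lists were chosen with earlier results of these data known. Named genes were a fixed set of 13 members, up to 6 called members each way per comparison without overlap, up to 4 called genes per list, and members whose call or sign depends on an alternative (RPL14 for sign); RPL28, RPS26, RPL38, RPL32, RPS2 and those given as exceptions were named after their values were seen. Some genes under this rule are not reported here. In shXPO7_3/4OHT only RPS14, RPL39L and the members without overlap are named. Intervals and floors cover counting error or library spread only. Libraries of a group differed by more than sampling noise (chi-square per gene 4.57 to 61.7), and none was merged with another. This spread does not show that they came from separate cultures. Replicate letters were not used as pairs in the main fit, since correlations of same-letter deviations were mixed, from -0.20 to 0.57. Partial pairing is therefore not excluded.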

Additional observations from a re-analysis of the deposited data

How the results depend on the processing

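The direction of the ribosomal protein genes in OIS held in all alternatives that do not scale on the members themselves, while the number of calls did not. The 1 member called higher in any of these was RPL17, in the fit to the 2 groups alone and in the GC and length correction without vector replicate A. The count of 25 became 41 with upper-quartile factors (median log2 fold change -0.27), 40 with the replicate block and 41 with the GC and length correction together with the block, and it ran from 6 to 30 with 1 library left out. With the members setting the scaling, 18 were called and the medians became 0.021 in OIS, 0.014 in shXPO7_5/4OHT and 0.015 between the knockdowns, by construction. Of the 25 calls, 3 (RPL10, RPL36 and RPL39L) held in all 16 alternatives and 24 kept their sign; RPL14 changed it, at 0.0032 under the members' scaling. Of the other members, 35 were called under at least 1 alternative, counting either direction. They include the 11 members called higher under the members' scaling.

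In shXPO7_5/4OHT the count of 0 became 1 with DESeq2, 4 with the GC and length correction, 7 with that correction and the replicate block, and 0 to 31 with 1 library left out. After the data were seen, the correction was repeated with each library left out, which gave 14 to 29 calls in OIS and 0 to 35 in shXPO7_5/4OHT. Without the correction, the block changed no other count of members called by over 1.5 times, while over all genes the share called in shXPO7_5/4OHT went from 0.589% to 0.242% lower and 0.733% higher. The labels do not say what the letters stand for, and 6 of 12 libraries correlated best with a library of their own letter.

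Some members below 0 in OIS were called higher under the members' scaling, with log2 fold changes of 0.18 for RPS13, 0.16 for RPL27A, 0.15 for RPL27, 0.18 for RPL34 and 0.099 for RPL4 among them. Uncalled there were 0.053 for RPL5, 0.058 for RPL11, 0.081 for RPL22, 0.023 for RPS14, 0.070 for RPS27 and 0.069 for RPL13A, and RPL22L1 was -0.031 under the correction with the block. In shXPO7_5/4OHT the members' scaling gave -0.0053 for RPLP0, -0.13 for RPL5 and -0.065 for RPS6, and RPL5 ran from -0.011 to 0.048 with 1 library left out. In shXPO7_3/4OHT RPS14 was -0.041 under the members' scaling, -0.0052 under the correction, -0.0058 under the correction with the block and -0.081 to 0.060 with 1 library left out. The causes were not tested. With 3 libraries a group, a median member SE of 0.09 on the log2 scale limits what can be seen of changes this small.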
